A study of Mus musculus with 2 samples.

Results

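The genes described here are the RUNX family, Runx1, Runx2 and Runx3, and Cbfb, the gene of their shared partner subunit, in open chromatin of mouse blood neutrophils. They are 4 of 21938 protein-coding genes in the annotation, GENCODE release M21 on GRCm38.p6 (mm10), and were chosen by name, with earlier results of these data known. Their annotated start sites, joined where neighbours lay within 1 kb, gave 8 start-site clusters, or promoters, of 48607 in all protein-coding genes. Accessible DNA was mapped by ATAC-seq, which uses a transposase to place adapters in unprotected stretches of the genome. All cells were of 1 group, neutrophils of peripheral blood, taken from adults of the C57BL/6J strain at 5 to 6 weeks of age, and 50000 of them went into each of 2 libraries, replicates 1 and 2. Sex was not collected, no sorting or purification is named, and no genotype or treatment is given. Both libraries have the same donor record, and the labels do not say whether they came from separate mice, so the spread between them may be technical.

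RUNX proteins bind DNA through the Runt domain as heterodimers with the CBFβ protein, which does not itself contact DNA but strengthens their binding. Each RUNX gene has a distal promoter, P1, and a proximal promoter, P2, which lies inside the gene body and gives a protein with another N-terminus. In the mouse, Runx1 is required for definitive blood formation and is transcribed in adult blood cells mainly from P1, Runx2 is required for bone, and Runx3 acts in cytotoxic T cells and natural killer cells.

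Each library had a strict peak list, cut at a limit on the irreproducible discovery rate (IDR), and a less strict one based on pseudoreplicates. A further list held peaks that passed IDR between the replicates. Each peak has a signal value, a score from the authors' processing that has no stated definition or unit, so its sums, means and differences below are on that scale alone. Overlapping peaks were merged into regions, which numbered 27709 in replicate 1 and 14548 in replicate 2, with median signal values of 10 and 11.8, and 14119 regions were found in both. A promoter is called open where strict peaks of both replicates lay within 1 kb of its start sites. With 1 group of 2 libraries no test was possible, and every comparison below is a description. A weak peak from few cells and a weakly open site in all cells cannot be told apart in such bulk lists.

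Runx1 and Cbfb had an open promoter, whereas Runx2 and Runx3 had none (2 of 4 genes, against 39.7% of all protein-coding genes). Counted by promoter, 2 of 8 were open in both replicates, against 19.2% of all promoters. In the strict list of replicate 1 it was 3 of 8, against 24.0%, and in that of replicate 2 it was 2 of 8, against 19.5%. These shares lay near those of all genes. A promoter is called CpG-rich where the 500 bp on either side of its 5′-most start has a GC share of 0.5 or more and a CpG ratio, observed over expected, of 0.6 or more. P2 of all 3 RUNX genes was CpG-rich and none was open, so that Cbfb was the 1 open promoter of 4 CpG-rich ones, against 62.9% of the 10978 CpG-rich promoters of all genes. Of the 4 others, P1 of Runx1 was open, against 6.41% of 37629.

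The P1 promoters share a stretch of sequence, which is shown here because the Runx1 peak summits lie beside it. A search for the RUNX core strings TGTGGT and TGCGGT on both strands, within 250 bp of each 5′-most start, found ACCACA, the reverse complement of TGTGGT, next to all 3 P1 starts. In each P1 there are 2 copies on the gene's strand with 2 bases between them, inside an identical run of 18 bases. The pairs are shown 5′ to 3′ on the gene's strand, from GRCm38.p6, with RUNX core strings on either strand in capitals.
Runx1 P1: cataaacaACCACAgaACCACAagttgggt
Runx2 P1: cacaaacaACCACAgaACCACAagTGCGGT
Runx3 P1: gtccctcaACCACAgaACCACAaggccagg
The Runx1 stretch is chr16:92826025-92826054 (minus strand), and its strings start 103 and 111 bp downstream of the 5′-most start, in a 5′ UTR exon. The Runx2 stretch is chr17:44814583-44814612 (minus strand), with strings 193 and 201 bp downstream, in an exon that is coding in some annotated transcripts and 5′ UTR in another. The Runx3 stretch is chr4:135120503-135120532 (plus strand), with strings 141 and 133 bp upstream of the start. The pair ACCACANNACCACA was found on either strand within 250 bp of the 5′-most start of 12 of all 48607 promoters (0.0247%), 3 of which were the P1 promoters of Runx1, Runx2 and Runx3. At least 1 RUNX string was within the same distance of 35.7% of all promoters and at least 2 of 7.45%. No RUNX string lay there in P2 of any RUNX gene, in the additional Runx1 start cluster or in Cbfb. Of the genes of the 12 promoters with the pair, Runx1 and Card6 were called open in both replicates. The pair and the width of this search were chosen after the sequences had been seen. A string match is a description and not a bound site.

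Runx1 (ENSMUSG00000022952.17) lies on the minus strand of chromosome 16 and is 225 kb long. At P1, whose 5′-most start is chr16:92826149, replicate 1 had a strict peak at chr16:92825801-92826314 with a signal value of 10.2. Replicate 2 had one at chr16:92825715-92826324 with a signal value of 12. The mean was 11.1 ± 1.33 (SD, n = 2), and the list passing IDR between replicates gave 11.2. In replicate 1, 48.4% of regions had a signal value as high or higher, and in replicate 2 47.8%, so the promoter was a mid-strength region in both. The summits lay 118 bp and 102 bp downstream of the 5′-most start, just after and just before the paired RUNX strings. The surrounding 1 kb had a GC content of 46.9% and a CpG ratio of 0.310.

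P2 of Runx1, 129 kb further downstream at chr16:92697328, had no strict peak in either replicate, although its GC content was 61.9% and its CpG ratio 0.865. The less strict lists gave it signal values of 6.74 in replicate 1 and 4.66 in replicate 2, and the list passing IDR between replicates gave 6.42. In that last list 92.7% of regions were as strong or stronger. The summits of the less strict peaks were 488 bp and 504 bp downstream of the P2 start. A cluster of 2 further start sites, the 5′-most at chr16:92696125, lies within reach of the same weak peak and had no other. The 200 bases upstream of P2 are shown for contrast with P1. They hold no RUNX string, and the capitals mark 2 copies of CCAAT, the NF-Y core, on either strand, and 27.3% of all promoters hold at least 1 in the same window.
Runx1 P2, upstream: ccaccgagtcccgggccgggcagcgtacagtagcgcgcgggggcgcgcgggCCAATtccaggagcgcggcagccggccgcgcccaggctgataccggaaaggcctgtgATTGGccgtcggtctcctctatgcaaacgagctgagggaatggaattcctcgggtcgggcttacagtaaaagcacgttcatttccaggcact
These bases are chr16:92697329-92697528 on the minus strand of GRCm38.p6.

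Runx2 (ENSMUSG00000039153.16), on the minus strand of chromosome 17, is 319 kb long and had no strict peak at either promoter. P1, at chr17:44814797, had no peak in any of the 5 lists, and it carries the same RUNX pair as the open P1 of Runx1. P2, 78.1 kb downstream at chr17:44736648, had less strict peaks alone, with signal values of 4.63 in replicate 1 and 5.02 in replicate 2. In those lists 80.7% of regions in replicate 1 and 83.4% in replicate 2 were as strong or stronger, so both values were below most of their lists.

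Runx3 (ENSMUSG00000070691.10), on the plus strand of chromosome 4, is 57.3 kb long. Its P1, at chr4:135120652, had a strict peak in replicate 1 alone, at chr4:135120298-135120684 with a signal value of 6.24. Replicate 2 had a less strict peak there, with a signal value of 5.05, and the list passing IDR between replicates gave 6.37 at an IDR of 0.0294. In the strict list of replicate 1, 90.5% of regions were as strong or stronger. The replicate 2 summit lay 140 bp upstream of the start, at the paired RUNX strings, and the replicate 1 summit lay 215 bp upstream. The start of the lincRNA Gm16225 lies 10 bp from the summit of the merged region, so the peak cannot be assigned to either gene. P2, 31.8 kb downstream at chr4:135152496, has the highest CpG ratio of the 8 promoters, 0.949. It had less strict peaks alone, with signal values of 4.29 in replicate 1 and 2.87 in replicate 2, and these 2 peaks did not overlap. The 200 bases upstream of the Runx3 P1 start are shown because they hold the RUNX pair at the peak. Their capitals mark the RUNX pair and 1 NF-Y string.
Runx3 P1, upstream: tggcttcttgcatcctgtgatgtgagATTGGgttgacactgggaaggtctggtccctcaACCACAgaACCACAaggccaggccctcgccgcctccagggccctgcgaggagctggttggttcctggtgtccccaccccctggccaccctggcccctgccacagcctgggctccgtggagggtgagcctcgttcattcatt
These bases are chr4:135120452-135120651 on the plus strand of GRCm38.p6, and 15.6% of all promoters hold a RUNX string in the same window.

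Cbfb (ENSMUSG00000031885.14), on the plus strand of chromosome 8, is 47.3 kb long and has a single CpG-rich promoter, with a GC content of 66.6% and a CpG ratio of 0.928. Replicate 1 had a strict peak at chr8:105170357-105170875 with a signal value of 9.71, and replicate 2 had one at chr8:105170233-105170788 with a signal value of 13.1. The mean was 11.4 ± 2.38 (SD, n = 2), and the list passing IDR between replicates gave 12.1. In replicate 1, 52.8% of regions were as strong or stronger and in replicate 2 38.9%. The signal values of Cbfb and of Runx1 P1 overlapped between replicates and do not rank the promoters. The summits lay 76 bp and 97 bp upstream of the start at chr8:105170674. The 75 bp on either side of the replicate 1 summit are shown, with 3 copies of GGGCGG, the core bound by SP and KLF factors, in capitals.
Cbfb promoter: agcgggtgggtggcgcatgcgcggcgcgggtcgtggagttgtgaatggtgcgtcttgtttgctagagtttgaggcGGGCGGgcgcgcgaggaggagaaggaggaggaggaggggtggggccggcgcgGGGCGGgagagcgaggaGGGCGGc
These bases are chr8:105170523-105170673 on the plus strand of GRCm38.p6, and 36.7% of the 14119 regions of both replicates hold GGGCGG on either strand in such a window.

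**Figure D1:**
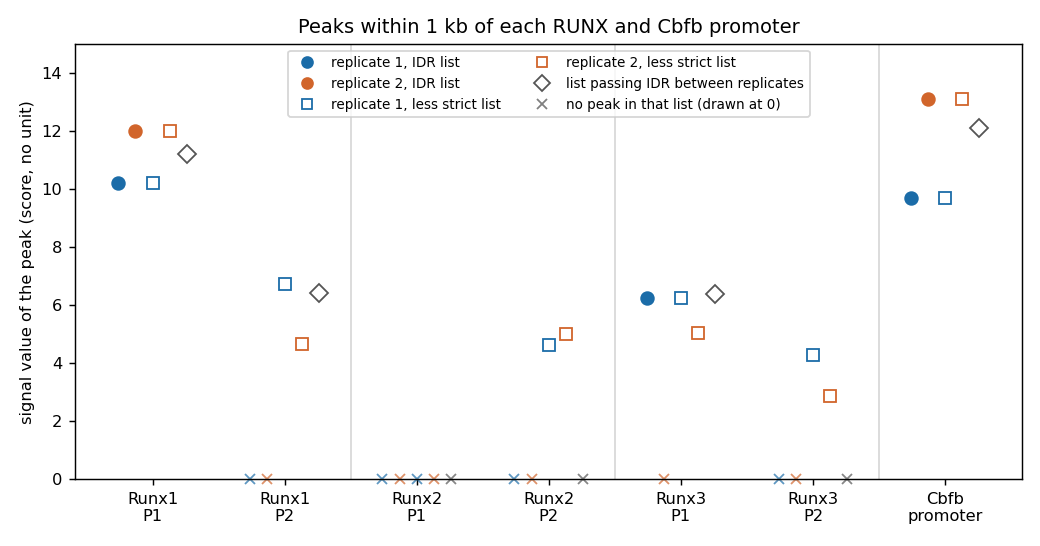
Signal value (vertical axis, score without a unit) of the strongest peak within 1 kb of the start sites of each named promoter, in the strict (IDR) and less strict lists of both replicates and in the list passing IDR between replicates. Runx1 P1 and Cbfb have peaks in all 5 lists, between 9.71 and 13.1, Runx2 P1 has none, and P2 of all 3 RUNX genes lies at or below 6.74.

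Among all genes, 201 had a P1 that was not CpG-rich and a CpG-rich P2 at least 5 kb away, the arrangement of all 3 RUNX genes. In these genes P1 alone was open in 6, or 2.99%, and Runx1 is one of them. P2 alone was open in 87 (43.3%), both in 11 (5.47%) and neither in 97 (48.3%), and Runx2 and Runx3 are among those with neither. The other 5 genes with P1 alone open were Atp6v0e, Cdk14, Hip1, Mast3 and Stk32c, named after their values were seen. The place of Runx1 among them depends on the promoter width: with 2.5 kb in place of 1 kb, P2 of Runx1 takes in a peak 1492 bp upstream of its start and both its promoters are open. At that width P1 alone was open in 6 of the 201 genes (2.99%) and both promoters in 16 (7.96%). With the less strict lists, every named RUNX promoter other than Runx2 P1 had a peak in both replicates, so that 7 of 8 promoters were open, against 25.4%, and 4 of 4 genes, against 49.8%. In the list passing IDR between replicates it was 5 of 8 promoters, against 23.7%, and 3 of 4 genes, against 46.8%. In both of these counts P2 of Runx1 and its additional cluster rest on the same peak. In the less strict lists, P2 of Runx3 counts as open on peaks of the replicates that do not overlap. The order of P1 over P2 in signal value held for Runx1 and Runx3 in both replicates and was the other way round for Runx2.

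The bodies and surroundings of the 4 genes held 49 regions in at least 1 of the lists, 19 at Runx1, 16 at Runx2, 8 at Runx3 and 6 at Cbfb. Strict peaks of both replicates supported 7 of the 49, which were 5 at Runx1, 1 at Runx2, 1 at Cbfb and 0 at Runx3. Replicate 1 alone supported 13, and replicate 2 alone 0. Of those 13, 10 had a less strict peak in replicate 2 (76.9%), against 69.4% of the 13435 regions of replicate 1 without a strict partner across the genome. The larger number in replicate 1 at these genes went with its longer list, and the part of depth in this was not tested.

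**Figure D2:**
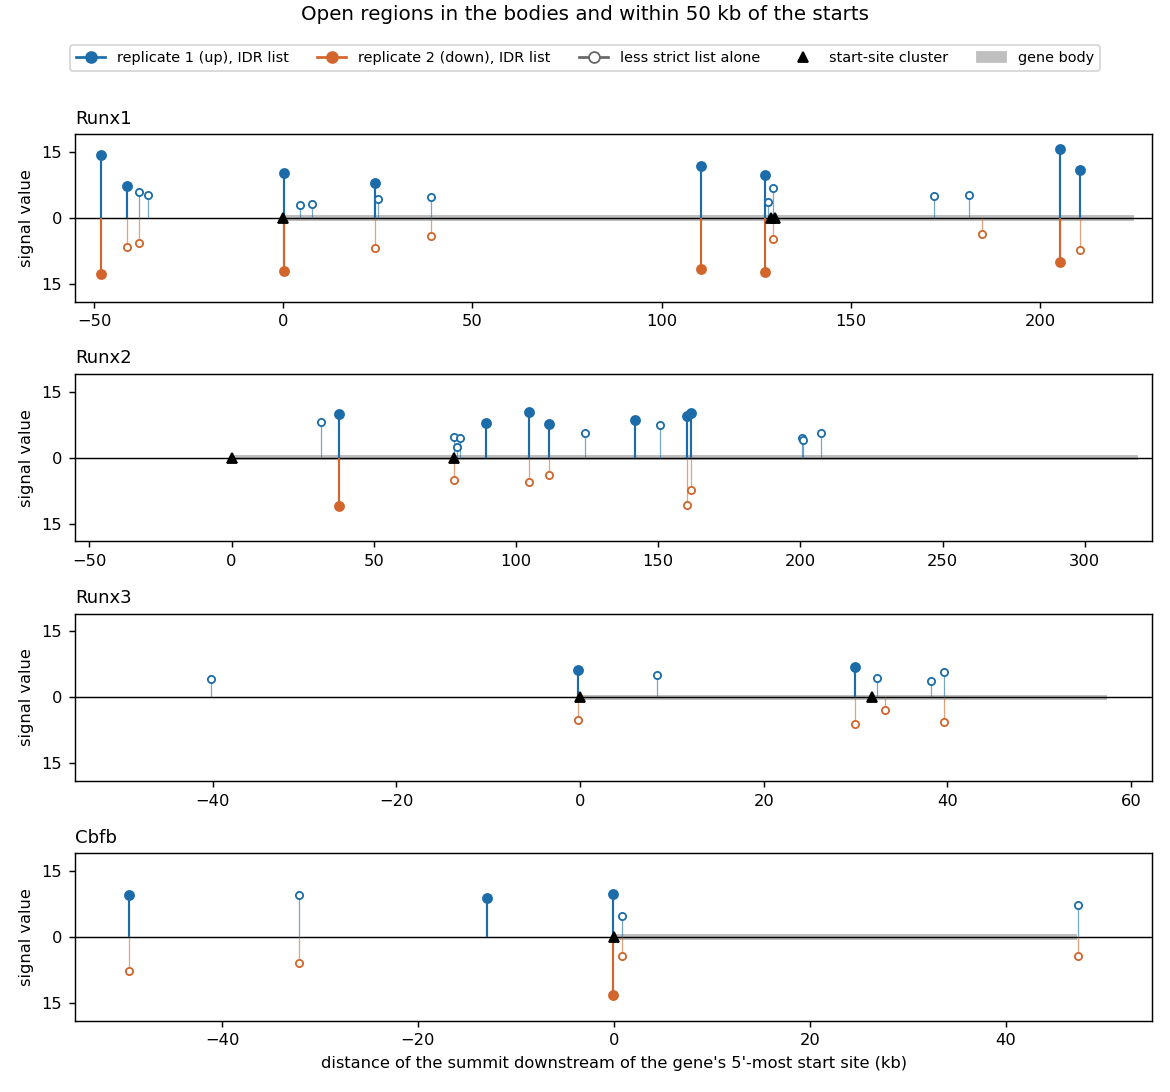
Regions at the 4 genes by distance from the 5′-most start (horizontal axis, kb), with signal values of replicate 1 upwards and replicate 2 downwards (score without a unit). Filled points are strict peaks, open points less strict peaks, triangles start-site clusters and grey bars gene bodies. Runx1 has 5 positions with filled points on both sides, Runx2 and Cbfb 1 each and Runx3 none.

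Runx1 carried 4 regions of both replicates in its body, P1 and 3 intronic regions. Only 0.816% of all protein-coding genes had as many, and 4.98% of the 2492 genes of at least 100 kb. Per 100 kb of gene, Runx1 had 1.78 such regions, against a mean of 0.507 in those long genes and of 4.25 over all genes. Runx2, although longer, had 1, or 0.314 per 100 kb. Cbfb had 1, its promoter, and Runx3 had 0, whereas 42.7% of all genes had at least 1. Within 50 kb of the 5′-most start, Runx1 had 2 regions of both replicates, Runx2 1, Runx3 0 and Cbfb 1, against a mean of 1.67 over all genes, of which 63.2% had at least 1. In replicate 1 alone the bodies held 6 regions in Runx1, 7 in Runx2, 2 in Runx3 and 1 in Cbfb, so Runx1 did not lead Runx2 in that list. There 1.65% of all genes had as many as Runx1 and 1.02% as many as Runx2, 11.4% and 7.74% of the long genes, 20.2% as many as Runx3 and 52.2% as many as Cbfb. In replicate 2 alone they held 4 in Runx1, 1 in Runx2, 0 in Runx3 and 1 in Cbfb. As many as in Runx1 were found there in 0.925% of all genes, and as many as in Runx2 or Cbfb in 43.1%. Of the long genes, 5.30% had as many as Runx1 and 47.2% as many as Runx2. The less strict lists of both replicates gave 8 in Runx1, 6 in Runx2, 3 in Runx3 and 3 in Cbfb, numbers reached by 0.757%, 1.73%, 8.88% and 8.88% of all genes, whose mean was 0.971. Among the genes of at least 100 kb, 5.94% had as many there as Runx1 and 11.5% as many as Runx2.

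**Figure D3:**
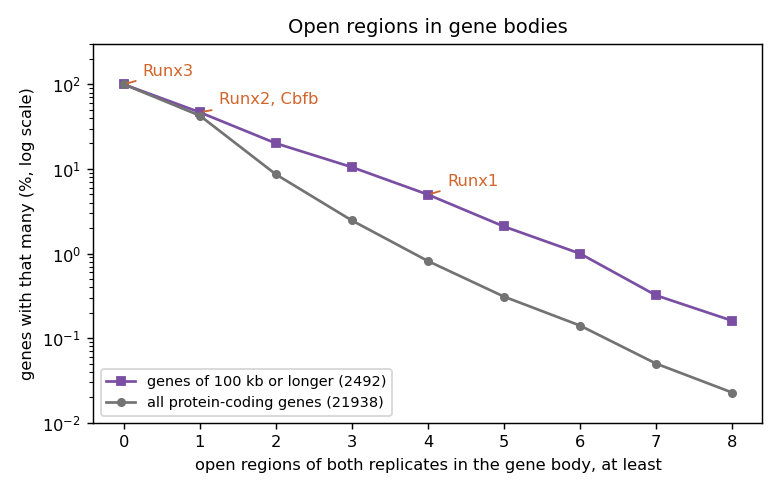
Share of genes (vertical axis, %, log scale) with at least the given number of regions of both replicates in the gene body (horizontal axis), for all protein-coding genes and for those of 100 kb or longer. Runx1 is placed at 4, Runx2 and Cbfb at 1 and Runx3 at 0.

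Of the Runx1 regions of both replicates, the one farthest downstream lay 205.2 kb from the 5′-most start, in an intron at chr16:92620753-92621299. Its signal value was 15.7 in replicate 1 and 9.87 in replicate 2, and 15.3 in the list passing IDR between replicates. It had the highest value of the 7 shared regions in replicate 1 and the lowest in replicate 2. A second intronic region, 110.5 kb from the start at chr16:92715495-92715840 and 18334 bp from any start site, had 11.9 in replicate 1 and 11.5 in replicate 2, the closest pair of values among the 7. The last lay at chr16:92698451-92698992, 1492 bp upstream of the P2 start, with 9.83 in replicate 1 and 12.3 in replicate 2. The DNA just outside the P2 promoter window had strict peaks in both replicates, and P2 itself had none.

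Outside the gene, 48.1 kb upstream of P1 at chr16:92874057-92874386 and inside the lincRNA Gm49723, a further region had 14.4 in replicate 1, 12.8 in replicate 2 and 15.3 in the list passing IDR between replicates. Only 17.6% of regions in replicate 1 were as strong or stronger, and 41.1% in replicate 2. Another 3 regions of Runx1 had strict peaks in replicate 1 alone. The one 24.3 kb into the gene had 8.05, and the one 210.6 kb into it had 10.8. The one 41.4 kb upstream had 7.33. In replicate 2 the less strict list gave these 3 regions 6.75, 7.32 and 6.50.

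The 75 bp on either side of the summit are shown for 3 of these Runx1 regions, read along the minus strand. Capitals mark core strings on either strand, which besides those of RUNX, NF-Y, SP and KLF factors were GGAAGT for ETS factors, TTGCNNAA for CEBP factors and TGANTCA for AP-1. The string of GATA factors searched was AGATAA. The 3 regions were chosen because they hold strings of factors active in myeloid cells. The region 1492 bp upstream of the P2 start, not shown, holds none of the searched strings in such a window.
Runx1 at 48.1 kb upstream: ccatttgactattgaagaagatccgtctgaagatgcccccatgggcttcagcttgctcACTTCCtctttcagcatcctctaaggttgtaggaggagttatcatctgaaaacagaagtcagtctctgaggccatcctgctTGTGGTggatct
Runx1 at 110.5 kb downstream: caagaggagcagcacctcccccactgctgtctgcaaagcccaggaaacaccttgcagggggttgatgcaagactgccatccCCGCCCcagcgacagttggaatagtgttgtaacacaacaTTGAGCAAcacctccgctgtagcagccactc
Runx1 at 205.2 kb downstream: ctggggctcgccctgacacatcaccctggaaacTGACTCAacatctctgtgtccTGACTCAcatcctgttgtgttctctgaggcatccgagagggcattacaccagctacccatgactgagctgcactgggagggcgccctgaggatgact
In GRCm38.p6 these are chr16:92874162-92874312, chr16:92715587-92715737 and chr16:92620842-92620992. The upstream region holds 1 RUNX and 1 ETS string, the region at 110.5 kb 1 CEBP and 1 SP and KLF string, and the region at 205.2 kb 2 AP-1 strings. Of all 14119 regions of both replicates, 16.9% hold a RUNX string in such a window, 29.3% an ETS string, 6.69% a CEBP string and 5.93% an AP-1 string. An SP and KLF string is in 36.7%.

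Within 50 bp of the summit, 1 of the 7 shared regions held a RUNX string, against 12.2% of all 14119 regions of both replicates, and it was Runx1 P1 with its pair. ETS strings were in 2, against 22.7%, AP-1 strings in 1, against 4.41%, and SP and KLF strings in 3, against 28.2%. CEBP, GATA and NF-Y strings were in 0 of 7, against 4.55%, 1.61% and 22.3%.

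The shared region of Runx2 lay 37.7 kb from its P1, in an intron at chr17:44776791-44777791, with 9.90 in replicate 1 and 10.9 in replicate 2. Its summit is 82 bp from a start site of Supt3, a gene that overlaps Runx2, so it overlaps the promoter of that gene. Runx2 had no other region of both replicates. In replicate 1 alone Runx2 had 6 further strict intronic peaks between 89.5 kb and 161.5 kb from P1, with signal values of 7.56 to 10.4. One of these, at 104.7 kb, had 10.4 and lay 167 bp from the start of the antisense transcript Runx2os2. Another, at 160.1 kb, had 9.43, and its less strict peak in replicate 2 had 10.8.

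Runx3 had a strict intronic peak 30 kb from P1 in replicate 1, with 6.87, and a less strict one in replicate 2, with 5.93. Around Cbfb, replicate 1 had strict peaks 49.5 kb upstream with 9.52, just inside the 50 kb limit, and 12.9 kb upstream with 8.96. Just outside the limit, 54.5 kb downstream of the Cbfb start and beyond its 3′ end, a peak at a start of D230025D16Rik had 17.8 in replicate 1 and 19.6 in replicate 2. For Runx3 the first strict peak outside was 50.6 kb upstream in replicate 1, with 7.82.

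Promoters of the cofactors of RUNX proteins were open in a larger share than those of the genes that RUNX proteins are known to act on, as a description of lists chosen with earlier results known. Of 25 cofactors, which include co-repressors, acetyltransferases and ubiquitin ligases that bind RUNX proteins, 19 were open in both replicates (76.0%), against 39.7% of all genes. Of all promoters, 62.9% of the CpG-rich ones were open and 6.41% of the others. The gene lists were not split by this class, and its part in their shares was not tested. The highest mean signal values were at Cbfa2t2, a corepressor of the ETO family, with 18.4 in replicate 1 and 21.3 in replicate 2, and at Wwp1, a ubiquitin ligase, with 16.8 and 17.8. Runx1t1, the ETO gene, had no strict peak. Of 18 transcription factors that act beside RUNX proteins in blood cells, 8 were open (44.4%). Elf1, an ETS factor, had 17.1 in replicate 1 and 10.9 in replicate 2, and Cebpa, a regulator of granulocyte formation, had 12 and 11.4. Cebpb and Erg had no strict peak.

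Of 10 myeloid genes known to be under RUNX control, 2 were open in both replicates (20%), Nfe2, a blood cell transcription factor, with 14.6 in replicate 1 and 15.9 in replicate 2, and Itgal, an integrin subunit of leukocytes, with 14.4 and 11.6. Csf1r, the receptor of macrophage colony-stimulating factor, and Csf2 had no strict peak. Of 7 lymphoid genes 1 was open, Zbtb7b, a regulator of helper T cells, with 9.13 in replicate 1 and 12 in replicate 2, and Cd4 and Cd8a had no strict peak. Of 4 megakaryocyte genes 0 were open, Myl9 without a strict peak, and of 9 skeletal genes under RUNX2 control 0 were open, Alpl and Bglap without a strict peak. In replicate 1 alone the 6 lists had 21, 12, 3, 3, 1 and 1 open genes in the order given, 47.1% being the share of all genes open in that list. With the less strict lists of both replicates they had 22, 12, 5, 2, 1 and 2, against 49.8% of all genes. The myeloid list, 5 of 10, was near that share. The list passing IDR between replicates gave 20, 11, 4, 2, 1 and 2, against 46.8%. Csf1r had less strict peaks of 3.83 in replicate 1 and 7.21 in replicate 2.

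**Figure D4:**
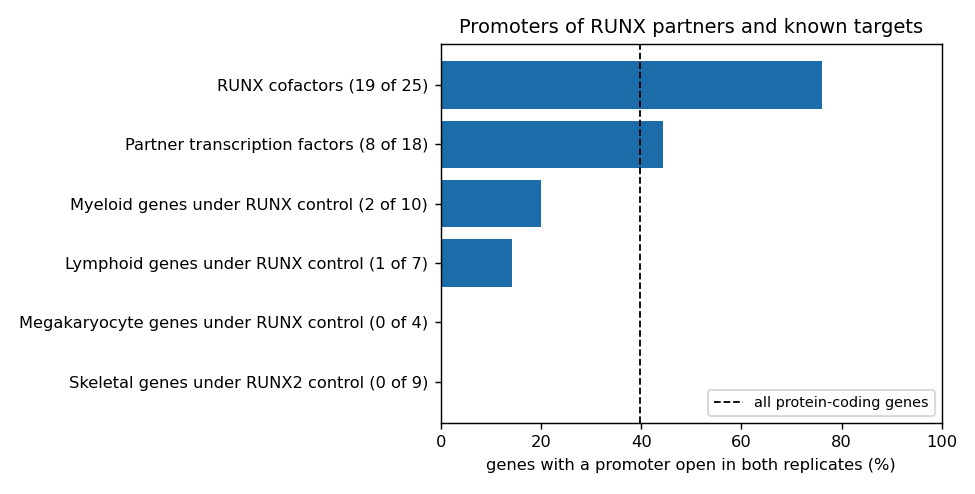
Share of the genes in each list with a promoter open in both replicates (horizontal axis, %), with the share of all protein-coding genes as a dashed line at 39.7%. Cofactors stand at 76.0% and partner transcription factors at 44.4%, and the 4 lists of genes under RUNX control are between 0 and 20%.

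Promoters of marker genes bear on the cell type label. Of 12 neutrophil markers, 5 were open in both replicates (41.7%), near the 39.7% of all genes, and 11 in replicate 1, against 47.1%, with summed signal values of 100 in replicate 1 and 55.9 in replicate 2. Clec4e and Mmp8 had the highest values of the open ones, and Ly6g had no strict peak. Of 8 B cell markers, 5 were open in both replicates (62.5%), above the share of all genes, and 7 in replicate 1. The highest values were at Cr2 and Bank1, and Blk had no strict peak. The summed values were 92.6 in replicate 1 and 66.1 in replicate 2. T cell markers were open in 1 of 8, Cd3d, with summed values of 24.5 in replicate 1 and 17.8 in replicate 2, and Bcl11b and Cd247 had no strict peak. Natural killer cell markers were open in 0 of 7 in both and 2 in replicate 1, with a summed value of 20.1 there and 0 in replicate 2. Megakaryocyte markers were open in 1 of 5, and monocyte, erythroid and osteoblast markers in 0 of 6, 0 of 5 and 0 of 5. With the less strict lists of both replicates, 10 of 12 neutrophil and 8 of 8 B cell markers were open, against 49.8% of all genes. In the list passing IDR between replicates it was 10 of 12 and 7 of 8, against 46.8%. T cell markers were open in 2 of 8 with either, and natural killer cell markers in 2 of 7. Lymphocytes use RUNX proteins too, and the part of such cells in the regions at the RUNX genes was not tested.

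Among the 8718 genes open in both replicates, the ones whose signal values were most like those of Runx1 P1 were Supt16, Dlst and Prox2, at distances of 0.005, 0.009 and 0.009 on the log2 scale over the 2 libraries. For Cbfb they were Klf7, Tesmin and Dlg1, at 0.006, 0.010 and 0.014. With 2 libraries such likeness is common, since 243 genes lay within 0.1 of Runx1 P1 and 115 within 0.1 of Cbfb.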

How the data were processed

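ATAC-seq peak lists of 2 neutrophil libraries, numbered 1 and 2 in the labels, were used. Per the labels they are on mm10; GRCm38.p6 with GENCODE release M21 is the same build, and coordinates count from 1. For the aligner, the peak caller and the treatment of reads, the sources used here give nothing. The deposited lists give each peak a signal value, which is the authors' score and is not defined in the file headers. They also give −log10 p of each peak, and the deposited ranked list gives −log10 IDR between replicates, both as the authors' values. No read counts were used, so depth is unknown.

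From these, overlapping peaks were merged into regions carrying the highest signal value. Regions of both replicates overlapped by at least 1 bp. A promoter was the 1 kb on either side of the start sites of a cluster, P1 and P2 were told apart by their start codons, and regions of a gene body overlapped it. Summit windows reached 50 bp to either side for counts of strings and 75 bp for printed sequence, both strands were searched, and sequences were read from the genome. For each gene list, and for the neutrophil, B cell and T cell markers, the text names the 2 open genes of highest mean signal value and up to 2 in alphabetical order without a strict peak; a few named by this rule are not reported here. The members and the lists were chosen with earlier results of these data known. The code for promoter overlap was run on simulated data, in which 200 of 200 planted peaks were recovered over 21938 genes. These peaks were planted well inside the promoter windows, so this checks the code and not the counts in the data. Alternatives were the less strict lists, the list passing IDR between replicates, each replicate alone, peaks at or above the median signal value, summits in place of intervals, promoter widths of 500 bp and 2.5 kb, the 5′-most start alone, a window of 100 kb and a string window of 100 bp. Python 3.11.15, pysam 0.24.0, samtools 1.23.1 and matplotlib 3.10.9 were used.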

Additional observations from a re-analysis of the deposited data

How the results depend on the processing

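No paired analysis was possible because there is 1 group of 2 libraries. The count of open member promoters, 2 of 8, became 7 with the less strict lists and 5 with the list passing IDR between replicates. The count of open genes, 2 of 4, became 4 with the less strict lists. Regions in the 4 gene bodies, 6 of both replicates, became 20 with the less strict lists and 16 with the list passing IDR between replicates. They numbered 6 to 16 with 1 replicate left out. The mean per gene over all genes rose too, from 0.555 to 0.971 and 0.861 with these 2 lists. It was 0.569 in replicate 2 alone and 0.935 in replicate 1 alone. Regions within 50 kb, 4, became 15 and 14 with the same lists, 4 to 10 with 1 replicate left out, and 8 with a window of 100 kb. Over all genes the mean within 50 kb rose from 1.67 to 2.93 and 2.64 with the same lists. It was 1.72 in replicate 2 alone and 2.85 in replicate 1 alone. No mean over all genes is given for the window of 100 kb. Regions with a RUNX string, 1 of 7, became 7 of 25 and 6 of 22 with the same lists, 2 to 5 with 1 replicate left out, and 2 with 100 bp on either side of the summit. The share of 12.2% of all regions is for strict regions of both replicates within 50 bp of the summit. No such share is given for the other string counts, so they cannot be read as high or low. Of the 73 genes in the 6 lists, 30 were open, against 39.7% of all genes. With the stronger peaks it was 18, against 30.4%. The mean signal value over Runx1 P1 and Cbfb, 11.2, ranged from 9.93 to 12.6 over the alternatives. Both ends come from leaving out 1 replicate, and with 2 libraries each one alone always lies within 1 SD of their mean. The less strict lists held the same peaks with the same values at these promoters. The mean could therefore have left that range only with the list passing IDR between replicates, which gave 11.7. Runx1 P1 and Cbfb had a peak in each of the 5 lists. These 16 alternatives moved a count by over 1.5 times. In 41 others a main result stayed within that range, or for the signal value within 1 SD, though some counts changed: member promoters to 3, member genes to 3, body regions to 5 and genes open over the lists to between 24 and 44. The 24 came with the 5′-most start alone, against 36.5% of all genes. The 44 came with the less strict lists, against 49.8% of all genes.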
